A study of Leucoraja erinaceus with 4 samples.

Results

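The early-high features are the assembled genes of the little skate, Leucoraja erinaceus, that were at least 4-fold lower at stage 33 than at stage 28 in the mean of the embryo's axial regions, among genes measured with at least 200 counts in some library. They number 201 of 23105 features, and 201 of the 5314 features that reach 200 counts. They were chosen from the stage contrast itself, S, which is the mean over the synarcual and the post-synarcual of the log2 fold of stage 33 over stage 28, with a limit of -2. Stage values are therefore given as a description with no test. The comparisons that follow concern the difference between the regions, how alike the regions were in their stage difference, and the assembled sequences behind each feature. The region differences cancel in S but come from the same libraries, so they are not independent of the choice.

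RNA was sequenced from 4 libraries, 1 for each group: the stage 33 synarcual, the stage 33 post-synarcual, the stage 28 synarcual and the stage 28 post-synarcual. All groups were skeletal tissue of male embryos, with no treatment named in the labels, from which the central nervous system and the axial muscle had been taken away. The protocol names 2 males and both stages without settling how many animals went into a library. Total counts were between 3922525 and 5092346 per library. The features carry assembly identifiers without gene names, so 0 of these identifiers are found in RefSeq's table for the species. No sequences were at hand to search. Hence no gene name, function, position or sequence is given for any feature.

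The synarcual is a fused tube of cartilage behind the skull of skates and rays that articulates with the pectoral girdle, and the vertebrae behind it stay separate. In cartilaginous fishes, mesenchyme around the notochord and neural tube condenses, turns into cartilage and secretes a collagen and proteoglycan matrix. The surface of that cartilage later mineralizes in small tiles. Dissected axial skeleton at an early stage can also hold notochord, connective tissue, vessels and remnants of neighbouring tissue. In bulk RNA of such tissue, fewer cells of a type and less RNA per cell cannot be told apart. The labelled tissue could not be checked against marker genes, because no feature is named.

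At stage 33 the early-high features were a trace of the RNA, and at stage 28 they were a moderate part of it. They took 0.269% of counts in stage 33 synarcual tissue and 0.188% in stage 33 post-synarcual tissue, against 3.24% in stage 28 synarcual tissue and 2.87% in stage 28 post-synarcual tissue. Summed and scaled by effective library size, their counts in the synarcual were 0.138 times as high at stage 33 as at stage 28, and in the post-synarcual 0.157 times. By the shares of counts above, the fall was larger in both regions, and larger in the post-synarcual than in the synarcual. The size of the fall and the order of the regions thus rest on the scaling. Per length, the median level of the early-high features was 4.85 TPM (a relative abundance corrected for transcript length) in stage 33 synarcual tissue and 3.19 TPM in stage 33 post-synarcual tissue, against 48.98 TPM in stage 28 synarcual tissue and 52.1 TPM in stage 28 post-synarcual tissue. The other 5113 features with at least 200 counts had medians of 33.5 and 23.8 TPM in those stage 33 libraries and of 39.4 and 42.8 TPM in those stage 28 libraries. The median of the early-high features was thus slightly above that of the other well measured features at stage 28, and far below it at stage 33.

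**Figure D1:**
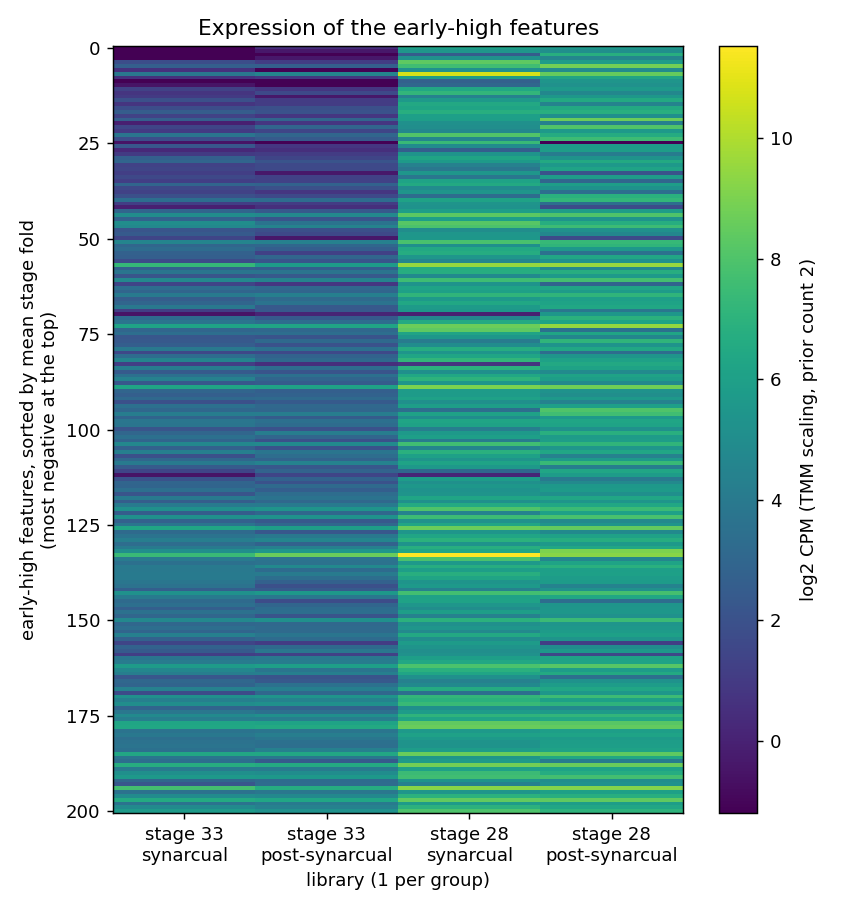
Log2 CPM (library-scaled counts with TMM factors and a prior count of 2) of the 201 early-high features, 1 row per feature, in the 4 libraries, sorted by S with the most negative at the top. Most rows are darker in both stage 33 columns and lighter in both stage 28 columns, and single rows are dark in 1 of the stage 28 columns.

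S ran from -6.15 to -2.0 with a median of -2.62 and quartiles of -3.10 and -2.25. It was at most -3 in 62 members, at most -4 in 23 and at most -5 in 11. In 132 members the fold was at most -2 in both regions, for 34 it was so in synarcual tissue alone and for 35 in post-synarcual tissue alone. Of all features whose higher library held 50 counts or more, 4.34% were that low in the synarcual region and 4.1% behind it, and this contrast is the one that chose the members. The lowest S belonged to TRINITY_DN25272_c0_g1 and TRINITY_DN34165_c0_g1. TRINITY_DN25272_c0_g1 (1639 bp) had 0 TPM in stage 33 synarcual tissue and 0.66 TPM in stage 33 post-synarcual tissue, against 79.4 TPM in stage 28 synarcual tissue and 65.1 TPM in stage 28 post-synarcual tissue. TRINITY_DN34165_c0_g1 (1299 bp) had 0 and 0.29 TPM in the same stage 33 libraries, against 71.8 and 59.7 TPM in those of stage 28. Both were thus at ordinary levels in both regions at stage 28 and at or next to 0 in both at stage 33.

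The limit of -2 cuts through a continuous range of values. The member nearest to it, TRINITY_DN27870_c0_g1, had 207 counts at stage 33 in synarcual tissue and 114 in post-synarcual tissue, against 1425 in synarcual and 735 in post-synarcual tissue at stage 28, with an S of -2.0. The nearest feature outside, TRINITY_DN45934_c1_g1, had 197 and 110 counts at stage 33 in the synarcual and post-synarcual, against 885 and 1075 at stage 28, with an S of -1.99. There were 28 members with S above -2.1, and 27 other features with at least 200 counts lay between -2 and -1.9. The lowest maximum count of a member was 202.

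Counts at stage 33 were low in most members. In 71 the higher stage 33 library held at least 50 counts, in 120 it held between 4 and 49, and in 10 it held 3 or fewer, of which 2 had 0 counts in both. For a library that shows 0 counts the limit is 3, equal to 0.769 CPM for the stage 33 synarcual, 0.986 CPM for the stage 33 post-synarcual, 0.521 CPM for the stage 28 synarcual and 0.533 CPM for the stage 28 post-synarcual. These limits and all intervals below cover counting error only.

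The first comparison asked whether the features that were high early were shared by the regions or set them apart. At stage 28 the members had no common direction: the median log2 region fold (synarcual over post-synarcual) was 0.03, and it was the same with the single feature at 0 counts held at its bound. Yet many members were far apart between the regions, in stage 28 values that the rule itself used. Of the 201, all of which could be compared, 34 were higher in the synarcual by 2-fold or more and 29 were lower there by as much, together 31.3%, where the background over all 10582 comparable features was 9.33%, with 4.39% higher and 4.93% lower. By 4-fold or more, 19 members were higher in the synarcual and 19 lower, together 18.9%, against 2.75% of all features, of which 1.12% were higher and 1.63% lower. Members made up 8 of the 34 features whose regions differed 16-fold or more at that stage, and 201 of the 10582 compared. The rule used the stage 28 values, so these excesses follow in part from the choice and are no result about the members.

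The median size of the log2 region fold at stage 28 was 0.61 among members and 0.29 among all comparable features. Members have at least 200 counts in some library, whereas the comparable features needed 50. The rule also used the stage 28 values, so the wider spread follows in part from the choice. Counting error was small beside the folds of the members. The 95% Clopper-Pearson counting interval of the ratio lay wholly beyond 2-fold in 29 of the members higher in the synarcual and in 26 of those lower. A wide region spread at stage 28 was not limited to this set: of the late-high features, which had an S of at least 2, 46.2% were at least 2-fold apart and 20.05% at least 4-fold apart. Among features with an S between those limits the shares were 5.56% and 1.0%. Stage 28 is the low stage of the late-high features, and their shares cover only those with at least 50 counts there. They are therefore not like for like with the shares of the members. All these shares are descriptions, and with 1 library per group the differences between them were not tested. In the 132 members whose fold was at most -2 in each region, 25.8% were at least 2-fold apart at stage 28 and 13.6% at least 4-fold.

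**Figure D2:**
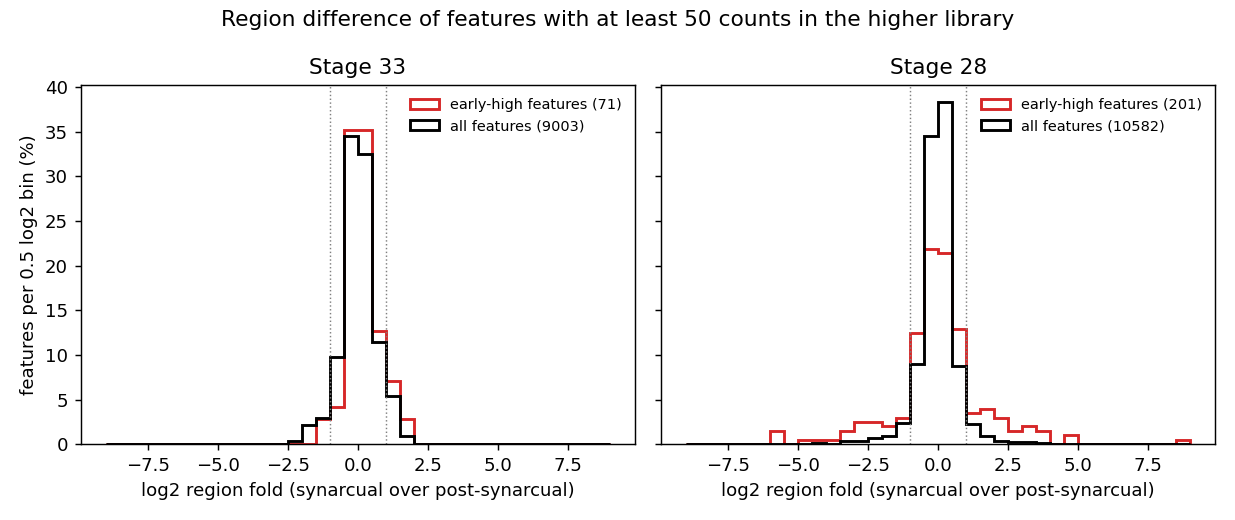
Distribution of the log2 region fold at stage 33 (left) and stage 28 (right) in bins of 0.5, as a percentage of the early-high features (red) and of all features (black) whose higher library of that stage held 50 counts or more. Dotted lines mark 2-fold. At stage 28 the red line is lower in the middle and longer on both sides, with 31.3% of members beyond 2-fold against 9.33% of all features, and at stage 33 the lines nearly coincide. The rule used the stage 28 values, so the wider spread there follows in part from the choice. The stage 33 panel leaves out the members with fewer counts there, so the panels hold different features and are not like for like.

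The members that were most different between the regions at stage 28 were at or near 0 in the lower region, except TRINITY_DN40938_c0_g1, which was low but measured there. TRINITY_DN32019_c0_g1 (674 bp) had 1 count at stage 33 in synarcual tissue and 0 in post-synarcual tissue, against 939 in synarcual and 0 in post-synarcual tissue at stage 28. It was seen in the stage 28 synarcual almost alone, at 603.5 TPM. With the 0 counts of the stage 28 post-synarcual held at 3, the synarcual was 306-fold higher. The 95% counting interval of the ratio began at 249-fold. TRINITY_DN40938_c0_g1 (mean length 2051 bp over libraries, 2 transcripts) had 30 and 25 counts in the stage 33 synarcual and post-synarcual, against 1923 and 62 at stage 28. It was 30.4-fold higher in the synarcual at stage 28 (95% counting interval 23.6 to 39.8), and at stage 33 the ratio was 0.936 (0.532 to 1.66).

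In the other direction, TRINITY_DN60080_c0_g1 (861 bp) had 7 counts at stage 33 in synarcual tissue and 3 in post-synarcual tissue, against 7 in synarcual and 507 in post-synarcual tissue at stage 28. Its level per length was 3.71 and 1.42 TPM at stage 33, and 3.24 and 264 TPM at stage 28, so that the stage 28 post-synarcual stood apart from the 3 other libraries. TRINITY_DN43277_c5_g1 (1778 bp) had 1 and 7 counts in the synarcual and post-synarcual at stage 33, against 4 and 314 at stage 28. It was 80.2-fold lower in the synarcual at stage 28 (31.0 to 296). These features met the rule through 1 region: in the low region both stages held few counts, and S is a mean over both.

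Most of the 38 members that were at least 4-fold apart at stage 28 had few counts at stage 33: in 34 the higher stage 33 library had under 50. The 4 others included TRINITY_DN39417_c1_g1, with 671 counts in stage 33 synarcual tissue and 1181 in stage 33 post-synarcual tissue. The 19 that were higher in the synarcual had median levels of 3.01 TPM in stage 33 synarcual tissue and 1.42 TPM in stage 33 post-synarcual tissue, against 104 TPM in stage 28 synarcual tissue and 11.4 TPM in stage 28 post-synarcual tissue. The 19 that were lower in the synarcual had 2.52 and 2.41 TPM in those stage 33 libraries, against 11.8 and 159 TPM in those of stage 28. The median log2 region fold at stage 33 was 0.40 among the first and -0.24 among the second. Both groups were picked for a wide stage 28 difference and the rule asks for low stage 33 values, so a narrower difference at stage 33 follows in part from the choice and nothing is read from it. In 19 of the 38 the stage 33 counting interval lay under 4-fold in the direction seen at stage 28. In 29 of the 38 the stage 33 interval included equal levels. These include members with 0 counts in both stage 33 libraries, which have no ratio there. The low stage 33 counts leave wide intervals at this depth, so this does not show that the regions were alike.

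**Figure D3:**
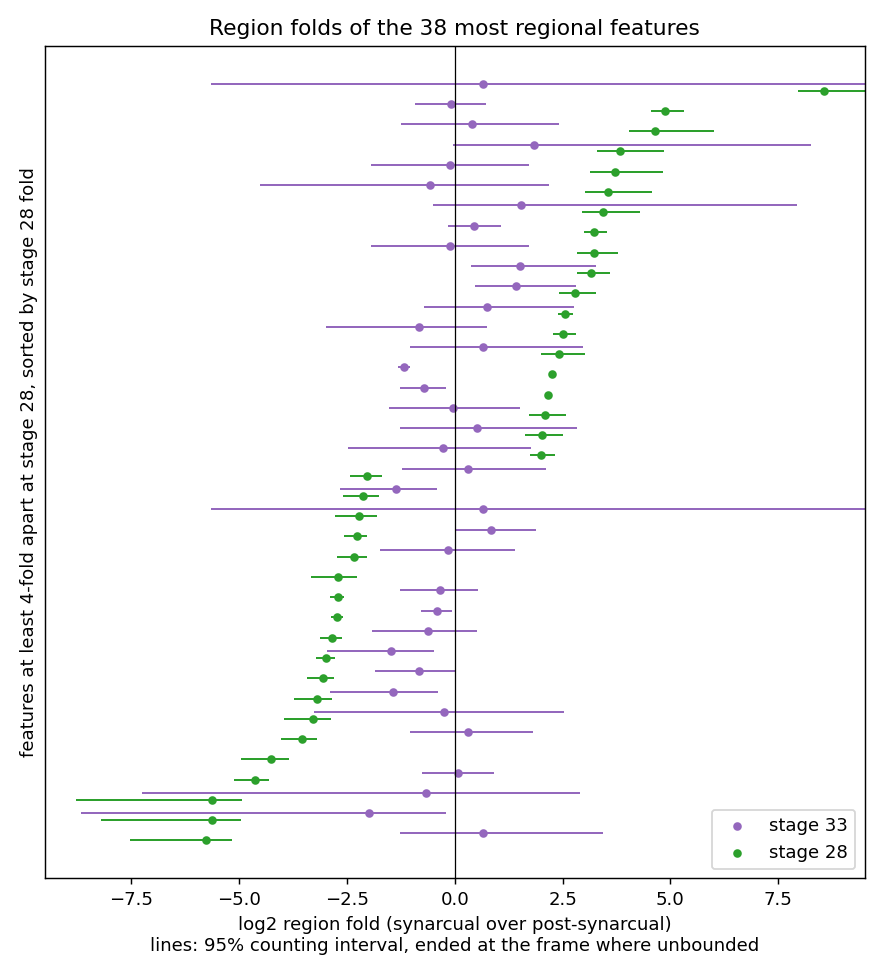
Log2 region fold (synarcual over post-synarcual) at stage 33 (purple) and stage 28 (green) of the 38 early-high features at least 4-fold apart at stage 28, 1 pair per feature, with points from TMM scaling and a prior count of 2 and lines for the 95% counting interval of the ratio. A feature with 0 counts in both libraries of a stage has no point there. Green points lie beyond 2 on both sides by choice, and most purple intervals cross 0.

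At stage 33 the share of members that differed between regions was near the background. Of the 71 members with 50 counts or more in the higher library, 7 were higher in the synarcual by 2-fold or more and 2 lower by as much, which is 12.7%, against 11.8% of all 9003 comparable features, with 6.31% higher and 5.44% lower. By 4-fold or more 0 of these 71 were apart, against 0.367% of all features, with 0.0222% higher and 0.344% lower. With libraries scaled to total counts 14 were higher and 0 lower, and in TPM 17 and 0, scalings that moved the median log2 region fold of all tested features at stage 33 to 0.45 and 0.48. The direction of the stage 33 differences thus rests on the scaling. No share over all features stands beside the counts under these other scalings, so they are no result about the members.

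Among the 71 members with at least 50 counts, the 2 with the highest region ratios at stage 33 were nearly even, or lower in the synarcual, at stage 28. The 3 that came next, which are counted below, were also higher in the stage 28 synarcual by 2-fold or more. TRINITY_DN39211_c0_g1 (mean length 1375 bp) had 56 counts at stage 33 in synarcual tissue and 14 in post-synarcual tissue, against 305 in synarcual and 470 in post-synarcual tissue at stage 28, and its stage 33 ratio was 3.12 (1.71 to 6.07). TRINITY_DN29953_c0_g1 (1311 bp) had 606 and 165 counts in the synarcual and post-synarcual at stage 33, against 4146 and 4321 at stage 28. Its ratio of synarcual over post-synarcual was 2.87 at stage 33 (2.41 to 3.42) and 0.939 at stage 28 (0.900 to 0.981). The stage 33 interval leaves out the choice of scaling. On the log2 scale that ratio was 1.51, and it was beyond the interval with total counts (1.97) and in TPM (2.02). The opposite order was found in TRINITY_DN45344_c0_g1 (mean length 1810 bp), with 30 and 55 counts in the synarcual and post-synarcual at stage 33, against 283 and 642 at stage 28. With TMM scaling it was 2.35-fold lower in the stage 33 synarcual (1.48 to 3.80) and 2.32-fold lower in that of stage 28 (2.01 to 2.67). Its region difference was thus alike at both stages with that scaling. Its stage 33 log2 region fold was -1.19, against -0.72 with total counts and -0.65 in TPM.

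Few members had a region difference at both stages. Of the 71 that could be compared at both, 3 had at least 2-fold more in the synarcual on both occasions and 1 had less on both, where the background over 8206 features was 1.35% and 1.74%. The first share lay above its background and the second below it. With 3 features and 1 feature, neither is a result about the members. The one lower at both was TRINITY_DN45344_c0_g1, which with total counts or in TPM was less than 2-fold lower at stage 33. The clearest of the 3 others, named after its values were seen, was TRINITY_DN31897_c0_g1 (2173 bp), with 128 and 37 counts in the synarcual and post-synarcual at stage 33, against 1733 and 589 at stage 28. Its ratio was 2.70 at stage 33 (1.86 to 4.00) and 2.88 at stage 28 (2.62 to 3.17). Across these 71 features the region folds of the stages, which share no library, correlated at a Pearson r of 0.23 and a Spearman rho of 0.35. Across the 30 with at least 100 counts in the higher stage 33 library the values were 0.13 and 0.31. Features are not independent replicates, and these values only describe the set.

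Both of the most abundant members at stage 28 were higher in the synarcual at that stage. TRINITY_DN39417_c1_g1 (mean length 646 bp over libraries, 2 transcripts) had 671 counts at stage 33 in synarcual tissue and 1181 in post-synarcual tissue, against 16974 in synarcual and 3505 in post-synarcual tissue at stage 28. At 12929 TPM it had the highest level per length of any feature in the stage 28 synarcual, with 3129 TPM in the stage 28 post-synarcual, and at stage 33 it had 464 TPM in the synarcual and 739.9 TPM in the post-synarcual. With TMM scaling it was 17.1-fold lower at stage 33 than at stage 28 in the synarcual (15.9 to 18.5), and 1.6-fold lower in the post-synarcual (1.5 to 1.71). These intervals leave out the choice of scaling. In TPM, 739.9 against 3129 in the post-synarcual, the fall was larger. The order of the regions was opposite at the stages. The stage 33 synarcual was 2.26-fold lower than the post-synarcual (2.05 to 2.48), and the stage 28 synarcual was 4.74-fold higher (4.57 to 4.92). Among the 71 members with at least 50 counts at both stages it was the 1 that was 2-fold apart in opposite directions, where 0.28% of all such features were. Without that minimum 4 members were, with no share over all features beside that count. The others of the 4 had under 50 counts in each stage 33 library, so the count is no result about the members. The stage 33 log2 region fold of TRINITY_DN39417_c1_g1 was -1.17, against -0.70 with total counts and -0.67 in TPM.

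TRINITY_DN30291_c0_g1 (792 bp, 1 transcript) had 54 counts at stage 33 in synarcual tissue and 70 in post-synarcual tissue, against 9607 in synarcual and 2094 in post-synarcual tissue at stage 28. It was 121-fold lower at stage 33 in the synarcual (92.3 to 161) and 16.2-fold lower in the post-synarcual (12.7 to 20.8), and it was 4.49-fold higher in the synarcual at stage 28 (4.28 to 4.71). Together these 2 features held 19.7% of all member counts in stage 28 synarcual tissue and 4.97% in stage 28 post-synarcual tissue. Without them the members took 0.253% and 0.163% of counts in the stage 33 synarcual and post-synarcual, against 2.60% and 2.73% at stage 28. Without them the share was thus slightly lower, not higher, in the stage 28 synarcual than in the stage 28 post-synarcual.

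A second comparison asked whether the stage difference of a member had the same size in both regions. The stage folds of the regions were at least 2-fold apart in 73 members, or 36.3%, against 10.8% of all 5314 features with at least 200 counts, and at least 4-fold apart in 37, or 18.4%, against 2.16%. These stage folds are the values that S averages, and 69 members passed the limit of -2 in 1 region alone, so the excess over the background is a description of the choice and no result about the members. In 39 of the 73 the stage fold was higher (less negative) in the synarcual, against 6.06% of all features, and in 34 it was lower, against 4.78%. With total counts the numbers were 55 and 27, and in TPM 59 and 25, with no share over all features beside them, so nothing is read from them. Of the 73, 52 were also at least 2-fold apart between the regions at stage 28. The stage 28 values enter both quantities, so this overlap is partly built in. In the 138 members within 2-fold at stage 28 the median stage fold was, on the log2 scale, -2.45 for the synarcual and -2.55 for the post-synarcual.

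**Figure D4:**
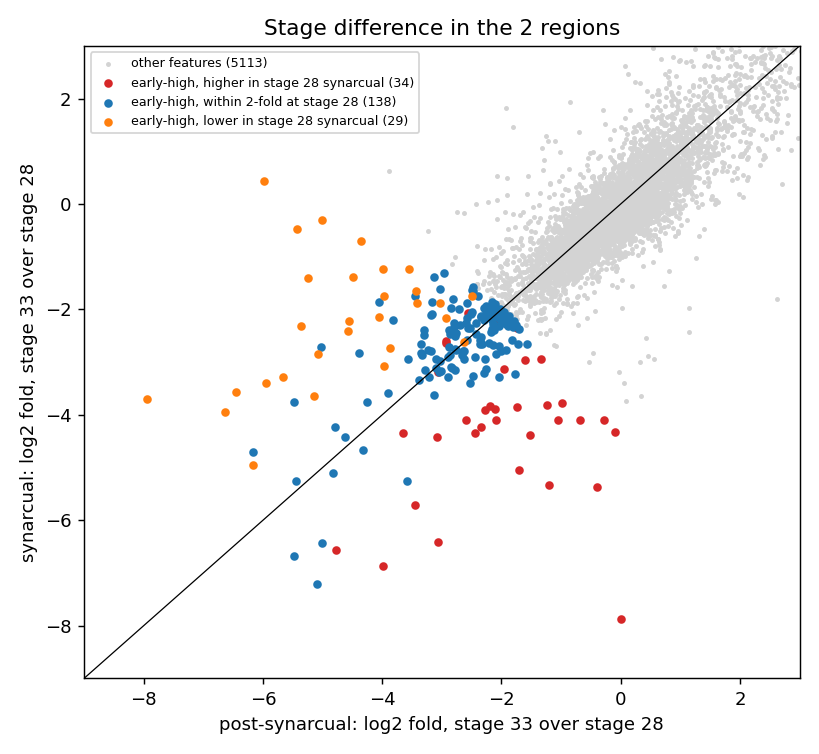
Log2 fold of stage 33 over stage 28 in the synarcual (vertical) against the post-synarcual (horizontal) for features with at least 200 counts, with both axes ended at 3 and the line of equal folds in black. Early-high features are red (34, higher in the stage 28 synarcual by at least 2-fold), blue (138, within 2-fold) or orange (29, lower), and other features are grey. Blue points lie along the line around -2.5, most red points below it and most orange points above it.

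The features at the extremes of this difference were also far apart between the regions at stage 28. In TRINITY_DN60080_c0_g1 the ratio of stage 33 over stage 28 was 1.48 in the synarcual (95% counting interval 0.442 to 4.93), and in the post-synarcual the feature was 91.3-fold lower at stage 33 (31.1 to 444). TRINITY_DN36843_c0_g1 (mean length 2262 bp) had 1 and 2 counts in the stage 33 synarcual and post-synarcual, against 3 and 263 at stage 28, so that its difference lay in the post-synarcual and the synarcual held too few counts to measure any. In the other direction, TRINITY_DN32019_c0_g1 had 0 counts behind the synarcual at both stages, which gives no stage fold there. For TRINITY_DN40938_c0_g1 both were measured: the ratio of stage 33 over stage 28 was 0.0230 (0.0155 to 0.0330) for synarcual tissue and 0.747 (0.450 to 1.21) for post-synarcual tissue. Both ratios rest on the TMM scaling. In TPM the post-synarcual had 3.96 at stage 33 against 11.4 at stage 28, a larger fall than that ratio and its interval give.

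In the model of region over both stages, 0 members passed an adjusted p of 0.05 in the quasi-likelihood test of edgeR (adjustment after Benjamini and Hochberg), and over all 14668 tested features the share called was 0.0%. Of the members, 197 were tested, and the 4 left out by the filter on low counts were TRINITY_DN32019_c0_g1, TRINITY_DN36843_c0_g1, TRINITY_DN60080_c0_g1 and TRINITY_DN43277_c5_g1. The lowest adjusted p of a member was 0.0953. At an adjusted p of 0.1 edgeR called 8 members, or 4.06%, against 0.498% of all features. At an unadjusted p of 0.05 it called 70 members, or 35.5%, 42 of them higher and 28 lower in the synarcual, against 12.9% of all features, with 6.8% higher and 6.12% lower. DESeq2's Wald test called 15 members at an adjusted p of 0.05, 7 higher and 8 lower in the synarcual, against 2.02% of the features it adjusted. The rule used the stage 28 values and asks for low stage 33 values, so these excesses over all features follow in part from the choice. They are no result about the members. By edgeR, TRINITY_DN31897_c0_g1 had an adjusted p of 0.0953 and TRINITY_DN45344_c0_g1 of 0.103. The call depends on the settings, since edgeR called 7 members with DESeq2's size factors (0.389% of all features), 26 with total counts (1.76%) and 55 without the filter on low counts (4.86%). With 1 residual degree of freedom, these p-values do not measure the spread between animals. They rest in part on how alike the region difference was at the 2 stages, and in part on variance shared across features. Where stage 33 counts were near 0, the fit rested mostly on stage 28. TRINITY_DN39519_c0_g1, named after its values were seen, had 0 counts in both stage 33 libraries and was among the members with the lowest adjusted p by edgeR.

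As assembled sequences the members resembled the other well measured features in transcripts and shared components, and they were somewhat shorter. Their median length was 2262 bp with quartiles of 1617 and 3243 bp, against 2677 bp with quartiles of 1743 and 4059 bp in the 5113 others. A single transcript made up 74.6% of members and 72.0% of the others. A share of 12.4% of members and 12.1% of the others came from an assembly component that holds another feature. Such features may be pieces or close copies of 1 gene, and their counts are uncertain where reads were split between them.

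The 25 members in shared components had 23 partners outside the set, of which 21 had an S below 0, 15 at most -1, and 6 at most -2 with too few counts for the rule. Of 20 partners with at least 30 counts in the higher stage 28 library, 18 had a stage 28 region fold of the same sign as the member. Around the other features with at least 200 counts, 74.2% of 857 partners had an S of the same sign and 68.8% of 647 partners with at least 30 counts had a region fold of the same sign. Most of those features had a smaller S in size than any member, and the sign of a small fold is less stable. Nothing is therefore read from the difference between these shares. An exception, named after its values were seen, was TRINITY_DN40122_c0_g1, with an S of 0.95 and a log2 region fold at stage 28 of -1.05, beside -2.31 and 1.19 in its member TRINITY_DN40122_c0_g2. In 2 components, named after their values were seen, several features were members. TRINITY_DN45907_c1_g2, TRINITY_DN45907_c1_g3 and TRINITY_DN45907_c1_g4 had log2 region folds at stage 28 of -1.09, -0.87 and -1.19 and an S of -3.30, -3.09 and -3.52. TRINITY_DN40835_c3_g1 and TRINITY_DN40835_c3_g3 had region folds of 4.64 and 3.84 and an S of -2.21 and -3.10. Their partner TRINITY_DN40835_c3_g2, below the minimum count, had 2 and 1 counts in the synarcual and post-synarcual at stage 33, against 45 and 2 at stage 28. Counted by component, the 201 members were 198 units, of which 61 in place of 63 were at least 2-fold apart between regions at stage 28.

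**Figure D5:**
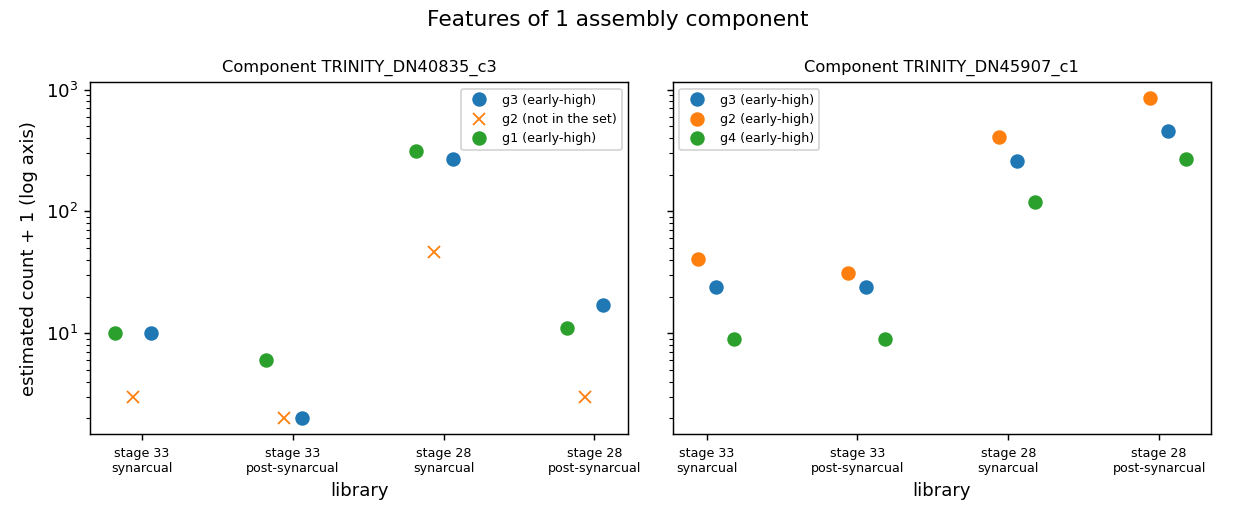
Estimated counts plus 1 on a log axis in the 4 libraries for the features of the 2 assembly components that hold several early-high features, with circles for early-high features and crosses for a feature outside the set. Features of each component show like orders of the libraries: those of TRINITY_DN40835_c3 stand out in the stage 28 synarcual and those of TRINITY_DN45907_c1 in both stage 28 libraries.

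The mix of transcripts could be followed over the stages in some members. The length of a feature in the authors' files is weighted by the abundance of its transcripts, so it moves when their mix moves. Of 28 members with several transcripts and at least 20 counts in every library, 21 had weighted lengths within 10% between the stages in both regions, and 3 were at least 10% apart the same way in both. These shares, 75% and 10.7%, were near those of the 1398 other such features with at least 200 counts, which were 76.1% and 9.08%, so they are no result about the members. TRINITY_DN39417_c1_g1 was 706 bp in stage 33 synarcual tissue and 698 bp in stage 33 post-synarcual tissue, against 598 bp in stage 28 synarcual tissue and 582 bp in stage 28 post-synarcual tissue. TRINITY_DN41613_c0_g1, named after its values were seen, was longer at stage 33 too, with 1867 and 2589 bp in the synarcual and post-synarcual, against 1479 and 1966 bp at stage 28. TRINITY_DN44588_c1_g1, likewise named afterwards, was shorter, with 2358 and 2293 bp at stage 33, against 2868 and 2800 bp at stage 28. These lengths carry no error estimate, and the last 2 features had between 33 and 78 counts in each stage 33 library.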

How the data were processed

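Per the file headers, the authors deposited estimated counts, TPM and FPKM per assembled gene. The submitters' processing notes name Bowtie2 and RSEM. Their versions, and any filters, are not stated in the sources. Deposited counts are not normalized, deposited TPM is corrected for length and scaled to 1 total per library, and deposited FPKM was not used. The authors' kit was unstranded, so overlapping genes cannot be told apart, per the labels' protocols. Feature lengths are the mean over libraries of those deposited.

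Counts were rounded (at most 1.89% of values per library were not whole). edgeR 4.0.16 in R 4.3.3 gave TMM factors from the 14668 features that reached 10 counts in 2 or more libraries, and log2 CPM with a prior count of 2. Effective library sizes, from 3042144 to 5753483, scaled all features. A region or stage-fold difference counted as different at 2-fold, given a higher count of 50 or more, or 200 in some library for stage folds, with no p-value. edgeR's quasi-likelihood test of region, with stage as covariate, ran on all libraries (common dispersion 0.0409), and DESeq2 1.42.0 was an alternative. The edgeR test was tested on simulated data with the same region fold at both stages and the common dispersion for all features. That says nothing about features whose region fold differs between the stages. Ratios have 95% Clopper-Pearson intervals. Named features were the 2 most abundant at stage 28, the 2 at each end of each comparison, the 2 with the lowest S and those nearest to its limit. Others are marked as named afterwards. Members and rules were chosen with earlier results of these data known. Alternatives were other scalings, filters, minimum counts and membership in each region.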

Additional observations from a re-analysis of the deposited data

Results flagged for a closer look

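TRINITY_DN39417_c1_g1 stood out because the regions took opposite orders at the stages: its log2 fold of synarcual over post-synarcual was -1.17 in stage 33 tissue and 2.24 in stage 28 tissue, and these values lie 3.42 apart. With 1 library per group the difference was not tested. At least 671 counts stood behind each of its 4 values. Its weighted length also differed between the stages, and whether its 2 transcripts took part in the region difference was not tested.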

How the results depend on the processing

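The number of members rests on the scaling and the limits: 792 with total counts, 497 in TPM, 331 with a largest count of at least 100, 80 with at least 500, and 132 with a fold of at most -2 in each region. Total counts moved the median S of all tested features to -0.99 and TPM to -0.69. The stage folds printed for single features use TMM scaling, and their counting intervals leave out this shift. All 201 were also chosen with either. The region counts at stage 28 stayed within 1.5 times under every other scaling, filter and prior count, and with components summed, an alternative added after the data were seen. Under the other scalings they are counts of the 201 members, not of sets chosen anew. The TMM factors of the stage 28 libraries were close (1.39 for the synarcual and 1.44 for the post-synarcual). Scaling thus had little room to move these counts. Among the members with a fold of at most -2 in each region the stage 28 counts were 34 of 132, 18 higher and 16 lower. At stage 33 there were 14 (14 higher, 0 lower) with total counts, 17 (17 and 0) in TPM, 4 (3 and 1) at a minimum of 100 counts, and 5 (4 and 1) among members low in each region. Stage folds 2-fold apart between regions numbered 28 (17 higher, 11 lower) at a minimum of 500 counts, 37 (20 and 17) among members low in each region, and 59 were higher in TPM. Members called for region numbered 0 by edgeR, 70 at an unadjusted p of 0.05, 7 with DESeq2's size factors (0.389% of all features), 26 with total counts (1.76%), 55 without the filter (4.86%) and 15 by DESeq2. Counts given here without a share over all features are no result about the members. The causes were not tested. Of 70 values of named features under other settings, 0 turned direction and 13 moved beyond their counting interval or, for differences of stage folds, by at least 0.5. No library could be left out, since each group has 1. No paired analysis was possible because each group has 1 library, so that replicate numbers pair none. The region test had stage as its covariate, which sets the regions against each other within a stage.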

Other observations

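Features that met the stage limit with fewer counts than the rule asks were also often apart between the regions, and more of them were higher in the synarcual than lower. There were 130 with an S of at most -2 and a largest count of at least 100 but under 200, and none of them is a member. At stage 28, 42 of the 130 were at least 2-fold higher in the synarcual and 13 at least 2-fold lower, together 42.3%, against 8.53% of all 3131 comparable features with the same range of largest counts. At least 4-fold apart were 27. Their median log2 region fold at stage 28 was 0.26, against 0.03 in the members. These features were chosen by the same limit on S, which uses the stage 28 values, so the excess follows in part from the choice. No share split by direction over all such features stands beside the 42 and 13. Neither the excess nor the direction is a result about these features. With 1 library per group these shares were not tested.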
